A study of Mus musculus with 6 samples.

Results

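The genes described here are the classical axon guidance ligands and receptors of the mouse: the semaphorins, plexins, neuropilins, ephrins, Eph receptors, Slits, Robos, netrins, Unc5 receptors and Dcc. They were chosen by name, as every gene-symbol row of these families with a summed count of at least 60 over the 6 libraries. Earlier results of these data were known when they were chosen. The rule gave 69 genes of 23473 gene-symbol rows, 35 ligands and 34 receptors. No family row fell under the minimum, and the members nearest to it were Efna4 with 84, Epha1 with 335 and Efna2 with 918 summed counts. By role there were 20 semaphorins, 11 plexins and neuropilins, 8 ephrins, 14 Eph receptors, 7 Slits and Robos, and 9 netrins and netrin receptors.

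Total RNA of the brain of adult male C57BL/6 mice, aged 8 to 9 weeks, was freed of ribosomal RNA and sequenced as 3 sham and 3 ischemia/reperfusion libraries. In the ischemia/reperfusion group the right middle cerebral artery was blocked with a coated filament for 60 min, a model of ischemic stroke, and 6 h of reperfusion followed. The sham group had the same surgery with no filament inserted. Mice of both groups were anaesthetised with chloral hydrate at 350 mg/kg. The labels name neither the region nor the hemisphere taken. Nor do they state that each library is a different animal, and the p-values therefore cover only sample-to-sample spread, which may be technical. The comparison asks which transcripts differ in abundance after ischemia and reperfusion.

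Axon guidance molecules steer growing axons by attraction or repulsion. Semaphorins bind plexins, class 3 semaphorins mostly through the neuropilin co-receptors; ephrins bind Eph receptor tyrosine kinases and signal in both directions between touching cells; Slits bind Robos; and netrins attract through Dcc and repel through Unc5 receptors. In the adult brain many of these genes stay expressed in neurons, glia and vessels, where they are known for roles in synapses, myelin and the vessel wall, and some are studied as barriers to axon regrowth after injury.

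The promoters of Sema4a, the member with the smallest p-value, and Plxna3, a receptor whose groups also did not overlap, are shown because both start sites match the ends of the deposited rows. The sequences are the 250 bases before the RefSeq start (GRCm38.p6), at chr3:88461183-88461432 on the minus strand for Sema4a and chrX:74328816-74329065 on the plus strand for Plxna3. Capitals mark the GC box, the letters GGGCGG read on either strand.
Sema4a: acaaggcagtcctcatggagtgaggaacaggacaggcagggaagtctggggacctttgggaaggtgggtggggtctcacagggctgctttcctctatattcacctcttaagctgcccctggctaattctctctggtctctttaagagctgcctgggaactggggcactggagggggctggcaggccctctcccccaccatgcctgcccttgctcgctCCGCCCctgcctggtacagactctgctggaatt
Plxna3: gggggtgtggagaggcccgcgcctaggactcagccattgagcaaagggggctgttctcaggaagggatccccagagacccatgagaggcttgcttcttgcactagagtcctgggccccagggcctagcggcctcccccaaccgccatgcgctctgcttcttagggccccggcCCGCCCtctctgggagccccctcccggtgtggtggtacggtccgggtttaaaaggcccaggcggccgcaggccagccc
Each sequence holds 1 GC box and no AP-1 motif, and its GC content was 59.6% for Sema4a and 68% for Plxna3. Sema4a has 4 start windows in the RefSeq table and Plxna3 has 1. Of the 69 members 59 had a window, 75 windows in all, each from 250 bases before to 50 after a start. On either strand, a GC box was found in 70.7% of the member windows, against 35.7% of all windows and 46.2% of those of protein-coding genes. The AP-1 motif TGANTCA was found in 4% of member windows (Sema4c, Sema4d and Sema6b), 7.81% of all windows and 6.99% of those of protein-coding genes. The cyclic AMP response element TGACGTCA was found in 1.33% (Epha2), against 1.79% of all and 2.23% of protein-coding windows. The hypoxia motif ACGTG was found in 17.3%, against 19.6% and 20.9%. The Egr motif GCGGGGGCG, which holds a GC box when a G follows it, was found in 9.33% of member windows. It was found in 2.91% of all windows and 3.87% of those of protein-coding genes. Among members it lay at Epha1, Epha8, Plxnb2, Sema4g, Sema5a, Sema6b and Slit2. These matches describe the letters of the windows and not binding.

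The libraries held 45.4 to 49.7 counts in units of 1e6. In every library 3 counts correspond to 0.0601 to 0.0648 CPM (counts per 1e6, scaled with TMM library sizes), and no member was at 0. Markers of neurons summed to 2901 to 3465 CPM, and those of astrocytes to 2785 to 3410 CPM. Markers of 3 other sources varied strongly between libraries of 1 group. The oligodendrocyte markers Mbp, Mog, Mag and Mobp, none of them at 0, summed to 3208, 2982 and 3460 CPM in sham replicates 1 to 3 and to 2444, 3113 and 5695 CPM in ischemia/reperfusion replicates 1 to 3. The 5 choroid plexus markers summed to 562 to 766 CPM in the sham libraries, but to 408, 17.7 and 1169 CPM after reperfusion. The 5 striatal markers reached 296 CPM after reperfusion replicate 1 and 72.9 to 172 CPM in the other 5 libraries. Neutrophil and monocyte markers (4 of 5 matched) summed to 2.87 to 6.24 CPM in the sham libraries and 7.22 to 12.4 CPM after reperfusion. Of these, S100a8, S100a9 and Mmp8 were higher in every ischemia/reperfusion library than in any sham library. Ccr2 was not, with 0.593, 1.20 and 0.248 CPM in the sham libraries and 0.822, 1.04 and 0.214 CPM after reperfusion. In such bulk samples, fewer cells of a type and less RNA per cell cannot be told apart.

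Levels were compared between genes per length, in RPKM (counts per kilobase of row length and 1e6 counts). The guidance genes had a median level of 4.77 RPKM over the 6 libraries, against 2.04 RPKM for all gene-symbol rows. In all, 13 members were above 10 RPKM and 10 under 2 RPKM. Epha4, an Eph receptor that binds both ephrin classes, had the highest level, with 49.4, 54.6 and 49.1 RPKM in sham and 43.7, 58.2 and 50.1 RPKM in ischemia/reperfusion; 95.5% of gene-symbol rows were lower. Efnb3, a transmembrane ephrin of myelin and neurons, followed with 30.9 ± 1.21 RPKM in sham and 34.0 ± 7.04 RPKM in ischemia/reperfusion (SD, n = 3 each). Efna3, a membrane-anchored ephrin-A, had 28.1 ± 3.19 and 30.4 ± 3.74 RPKM, which does not separate it from Efnb3 beyond their spread. Sema7a, a membrane-anchored semaphorin, had 25.8 ± 1.93 and 27.8 ± 4.17 RPKM, and Sema6b, a transmembrane semaphorin, 26.7 ± 2.43 and 25.1 ± 1.23 RPKM. The libraries of these neighbours in the order overlapped. Ephb6, an Eph receptor without kinase activity, lay below Sema7a and Sema6b in the sham libraries, with 23.5, 23.9 and 23.7 RPKM, and overlapped both in ischemia/reperfusion, with 23.2, 32.5 and 26.3 RPKM. The lowest members were Epha1, at 0.361 RPKM over the 6 libraries, and Efna4, at 0.184 RPKM.

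How the summed level was shared out differed between roles. Epha4 made up 36.0% of the RPKM summed over the Eph receptors, and the 3 highest, Epha4, Ephb6 and Epha6, 65.2%. Efnb3 held 40.3% of the ephrin sum, and Efnb3, Efna3 and Efnb2 together 85.6%. Among the Slits and Robos, Slit1, Robo2 and Robo1 held 70.8%. The 3 highest of the 20 semaphorins held 50.6%. Plexins and neuropilins were spread more evenly: Plxna2, the highest, held 15.8%, and the 3 highest 41.2%. Unc5a led the netrin group with 29.0% of its sum, above all 4 netrins, whose own levels were 2.11 to 2.52 RPKM. Ntn3 shares its strand and position with Tbc1d24, a row of 35050 counts against 3449 for Ntn3, so its count is uncertain.

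**Figure D1:**
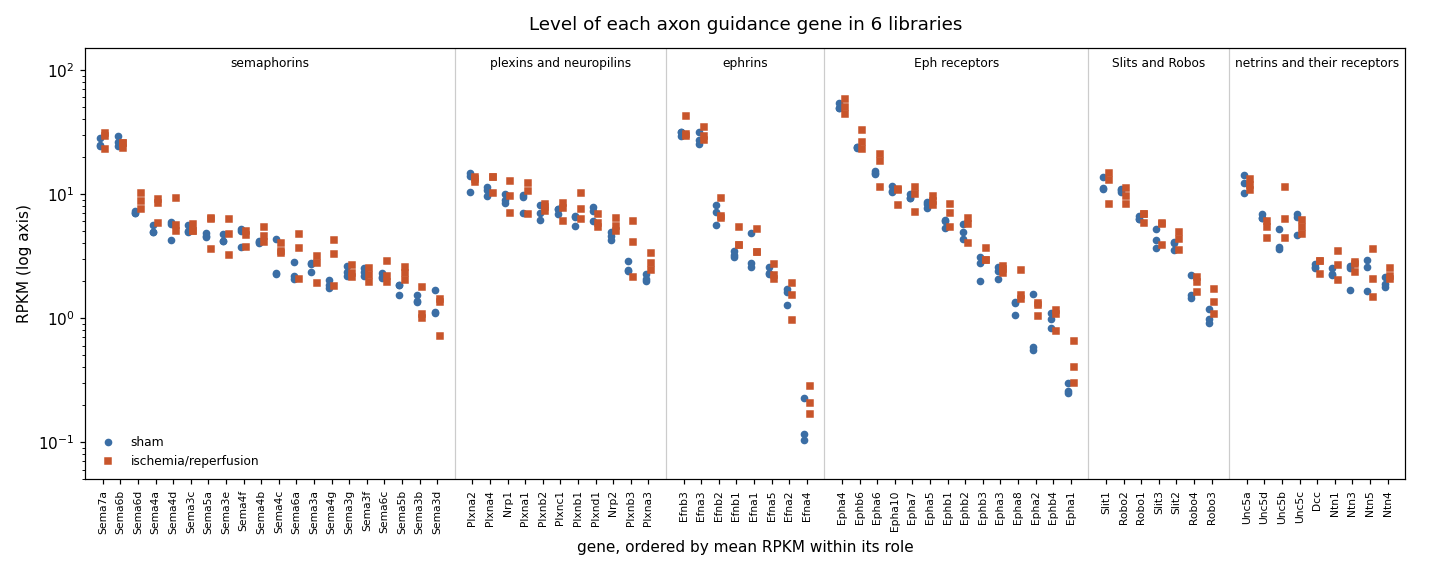
Level of each of the 69 guidance genes in RPKM on a log axis, by role, with circles for the 3 sham libraries and squares for the 3 ischemia/reperfusion libraries. Epha4 is highest, near 50.8 RPKM, Efna4 lowest, near 0.184 RPKM, and the libraries of both groups lie close together for most genes.

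After ischemia and reperfusion no guidance gene passed an adjusted p of 0.05 (edgeR quasi-likelihood test, Benjamini-Hochberg adjustment over all 40170 rows tested). Among all rows just 1 passed, 0.00249% of those tested. DESeq2, which called 1.8% of its rows, and limma-voom also called 0 of the 69 members. At an unadjusted p under 0.05 in edgeR there were 11 members (15.9%), 9 higher and 2 lower, against 15.6% of all rows and 15.1% of gene-symbol rows, so the share was near the background. Of all rows 8.73% were higher and 6.9% lower at that level, and of gene-symbol rows 6.39% and 8.71%. The groups did not overlap for 6 members, 8.70%, below the 21.6% of all rows: Sema4a, Plxna3, Efnb1, Sema5b and Sema6d were higher in each of the 3 ischemia/reperfusion libraries than in any sham library, and Unc5d was lower. The log2 fold change was positive for 45 and negative for 24 members, with a median of 0.08. It was positive for 53.1% of all rows and 44.2% of gene-symbol rows, whose median was -0.04. Single values ran from -0.36 (Unc5d) to 0.76 (Unc5b), and for 62 of 69 members the 95% interval stayed under 1 in size on the log2 scale, a 2-fold difference.

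The number of members at an unadjusted p under 0.05 was 19 (27.5%) without ischemia/reperfusion replicate 1, against 21.1% of all rows in that fit. It was 4 (5.80%) without ischemia/reperfusion replicate 3, 4 (5.80%) without sham replicate 1 and 3 (4.35%) without sham replicate 3, against 10.9%, 9.27% and 11.9% of all rows. With limma-voom it was 6 (8.70%), against 15.3%. Single libraries also set the size of several differences. Without ischemia/reperfusion replicate 3 the log2 fold change was 0.31 for Unc5b, 0.40 for Sema4g, 0.34 for Epha1, 0.18 for Epha8, 0.16 for Sema6d, 0.18 for Robo3, 0.23 for Plxnb3 and 0.24 for Sema6a, each over 1.5 times smaller than with all 6 libraries. The same held without ischemia/reperfusion replicate 1 for Efnb1 (0.20) and Nrp2 (0.15), and without replicate 2 of that group for Plxnb1 (0.08).

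**Figure D2:**
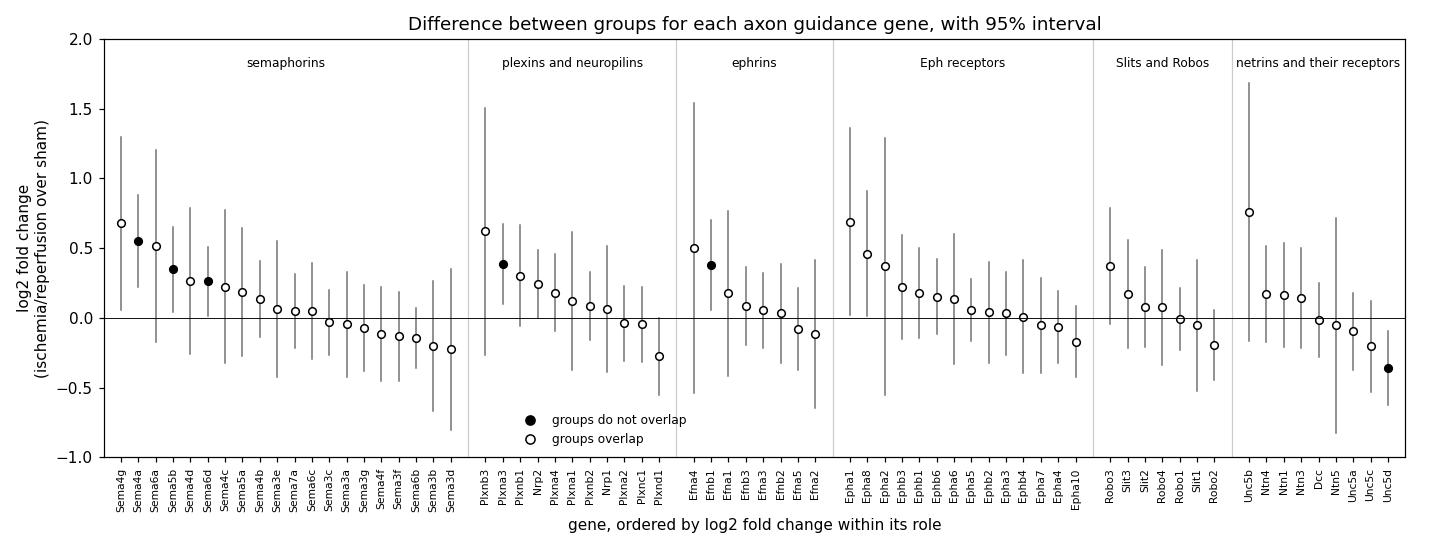
Log2 fold change (ischemia/reperfusion over sham) of each guidance gene with its 95% interval from edgeR, by role; filled points mark the 6 genes whose groups do not overlap. Most intervals cross 0, and the values run from -0.36 for Unc5d to 0.76 for Unc5b.

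Among the 20 semaphorins 4 (20%) had an unadjusted p under 0.05 in edgeR, against 15.6% of all rows. All 4 were higher in ischemia/reperfusion. Sema4a, a class 4 transmembrane semaphorin also known from immune cells and the retina, was counted at 17.2, 17.5 and 19.4 CPM in the sham libraries and 30.5, 20.1 and 28.6 CPM after reperfusion. The groups did not overlap, although ischemia/reperfusion replicate 2 lay close to the highest sham library. Its log2 fold change was 0.55 ± 0.15 (SE) with a 95% interval of 0.22 to 0.88, and its adjusted p of 0.172 was the smallest of all members (edgeR). Sema5b, a transmembrane semaphorin with thrombospondin repeats, had 8.57, 7.27 and 8.52 CPM in the sham libraries and 11.5, 9.26 and 10.2 CPM after reperfusion. All 3 ischemia/reperfusion libraries were higher, by 0.35 ± 0.14 on the log2 scale (SE), with an edgeR adjusted p of 0.274.

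Sema6d, a class 6 transmembrane semaphorin that binds Plxna1 and Plxna4, had nearly the same level in the 3 sham libraries, 47.0, 47.1 and 47.8 CPM, and 48.1, 57.6 and 64.6 CPM after reperfusion. The groups did not overlap, but ischemia/reperfusion replicate 1 lay just above sham, and the log2 fold change was 0.26 ± 0.11 (SE; edgeR adjusted p = 0.300). Sema4g, another class 4 semaphorin, had 8.10, 7.81 and 8.81 CPM in the sham libraries and 7.58, 14.2 and 17.8 CPM after reperfusion. Here ischemia/reperfusion replicate 1 was the lowest of the 6 libraries and the other 2 were above every sham library; the log2 fold change was 0.68 ± 0.27 (SE; edgeR adjusted p = 0.294). Of the 6 class 4 semaphorins 5 had a positive fold change, and the median of the 6 was 0.24. The 7 class 3 semaphorins, the secreted ligands of neuropilins, had 6 negative values and a median of -0.07, and none had an unadjusted p under 0.05. Of 16642 gene-symbol rows 7360 (44.2%) had a positive and 9282 a negative fold change. Sema3a, the prototype repellent of this class, had 17.4, 20.4 and 20.5 CPM in the sham libraries and 22.6, 20.3 and 13.6 CPM after reperfusion, so that the ischemia/reperfusion libraries lay on both sides of sham. Sema3e, the ligand of Plxnd1, was the class 3 member with a positive value, at 0.06 on the log2 scale.

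Of the 11 plexins and neuropilins 3 (27.3%) had an unadjusted p under 0.05 in edgeR, against 15.6% of all rows. Plxna3, a receptor partner of the neuropilins, had 14.5, 14.2 and 15.8 CPM in the sham libraries and 16.6, 19.1 and 22.5 CPM after reperfusion. Every ischemia/reperfusion library was above every sham library, and the log2 fold change was 0.38 ± 0.13 (SE; edgeR adjusted p = 0.223). Nrp2, the neuropilin that prefers Sema3f, had 38.0, 41.0 and 34.9 CPM in the sham libraries and 50.3, 40.7 and 44.0 CPM after reperfusion. The groups overlapped by 1 library, and the log2 fold change was 0.24 ± 0.11 (SE; edgeR adjusted p = 0.317). Plxnd1, a plexin known for its part in vessel patterning, had 51.2, 42.8 and 54.7 CPM in the sham libraries and 39.2, 47.1 and 36.5 CPM after reperfusion. It was below every sham library in 2 of the 3 ischemia/reperfusion libraries, at -0.27 ± 0.13 on the log2 scale (SE; edgeR adjusted p = 0.319). Nrp1, the neuropilin that binds Sema3a and vascular endothelial growth factor, had 54.8 ± 4.38 CPM in the sham libraries and 57.2 ± 17.4 CPM after reperfusion (SD, n = 3 each). The widest spread lay in the ischemia/reperfusion libraries, from 40.5 to 75.3 CPM. Plxna2 and Plxna4, the members of this role with the highest levels, had log2 fold changes of -0.04 and 0.18.

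Among the 8 ephrins Efnb1, a transmembrane ligand of EphB receptors, had 10.6, 11.6 and 10.2 CPM in the sham libraries and 17.2, 12.5 and 12.4 CPM after reperfusion. The groups did not overlap, ischemia/reperfusion replicate 1 was the highest, and the log2 fold change was 0.38 ± 0.15 (SE; edgeR adjusted p = 0.266). The abundant Efnb3 had 102, 98.0 and 103 CPM in the sham libraries and 91.7, 98.1 and 132 CPM after reperfusion, with overlapping groups and a log2 fold change of 0.08 ± 0.13 (SE). Efnb2, the ephrin of arterial vessels, and Efna3 differed by 0.03 and 0.05 on the log2 scale. Efna4 lay at 0.242 ± 0.110 CPM in the sham libraries and 0.345 ± 0.0986 CPM after reperfusion (SD, n = 3 each), too few counts for a narrow interval: it ran from -0.54 to 1.54 on the log2 scale.

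Of the 14 Eph receptors 2 (14.3%) had an unadjusted p under 0.05 in edgeR, against 15.6% of all rows. In none did the groups separate, while they did in 21.6% of all rows. Epha8, an ephrin-A receptor, had 6.51, 5.17 and 6.33 CPM in the sham libraries and 6.50, 7.15 and 11.2 CPM after reperfusion, a log2 fold change of 0.46 ± 0.20 (SE; edgeR adjusted p = 0.308). Epha1, a receptor mostly known from epithelia, had 0.859, 1.01 and 0.827 CPM in the sham libraries and 0.962, 1.32 and 2.08 CPM after reperfusion, at 0.69 ± 0.31 on the log2 scale (SE; edgeR adjusted p = 0.308). In both genes ischemia/reperfusion replicate 3 was the highest library and replicate 1 lay within the sham range. All 5 EphB receptors had positive values, from 0.01 to 0.22, as had 44.2% of gene-symbol rows, and none had an unadjusted p under 0.05. Epha4 had a log2 fold change of -0.07 with an interval of -0.32 to 0.19, Ephb6 of 0.15 and Epha6 of 0.14.

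No Slit or Robo had an unadjusted p under 0.05 in edgeR, against 15.6% of all rows. Robo2, a main neuronal Slit receptor, had 89.9, 86.6 and 87.3 CPM in the sham libraries and 75.8, 89.3 and 65.5 CPM after reperfusion. It was lower than every sham library in 2 of the 3, with a log2 fold change of -0.19 ± 0.11 (SE; edgeR adjusted p = 0.428). Robo1 had a log2 fold change of -0.01 with an interval of -0.23 to 0.22, and Slit1, the most abundant Slit, of -0.05 with an interval of -0.52 to 0.42. Robo3, the divergent Robo of midline crossing, had 4.94 ± 0.652 CPM in the sham libraries and 6.39 ± 1.50 CPM after reperfusion (SD, n = 3 each), at 0.37 on the log2 scale.

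Among the netrins and their receptors Unc5d, a repulsive netrin receptor that also binds Flrt proteins, had 64.0, 61.0 and 59.2 CPM in the sham libraries and 54.4, 49.9 and 39.3 CPM after reperfusion. All 3 ischemia/reperfusion libraries were below sham, and the log2 fold change was -0.36 ± 0.12 (SE; edgeR adjusted p = 0.219). Unc5b, the Unc5 receptor known from endothelium, had 21.5, 22.7 and 31.1 CPM in the sham libraries and 25.4, 36.8 and 65.3 CPM after reperfusion. Its groups overlapped, and the largest log2 fold change of all members over the 6 libraries, 0.76 ± 0.37 (SE), had an interval of -0.16 to 1.68 and an edgeR adjusted p of 0.391. Unc5a and Unc5c had -0.09 and -0.20, so 3 of the 4 Unc5 receptors had negative values, as had 9282 of 16642 gene-symbol rows. Dcc, the attractive netrin receptor, had 27.5 ± 0.782 CPM in the sham libraries and 27.2 ± 4.01 CPM after reperfusion (SD, n = 3 each), and Ntn1, its ligand, 13.6 ± 1.11 and 15.2 ± 3.88 CPM.

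**Figure D3:**
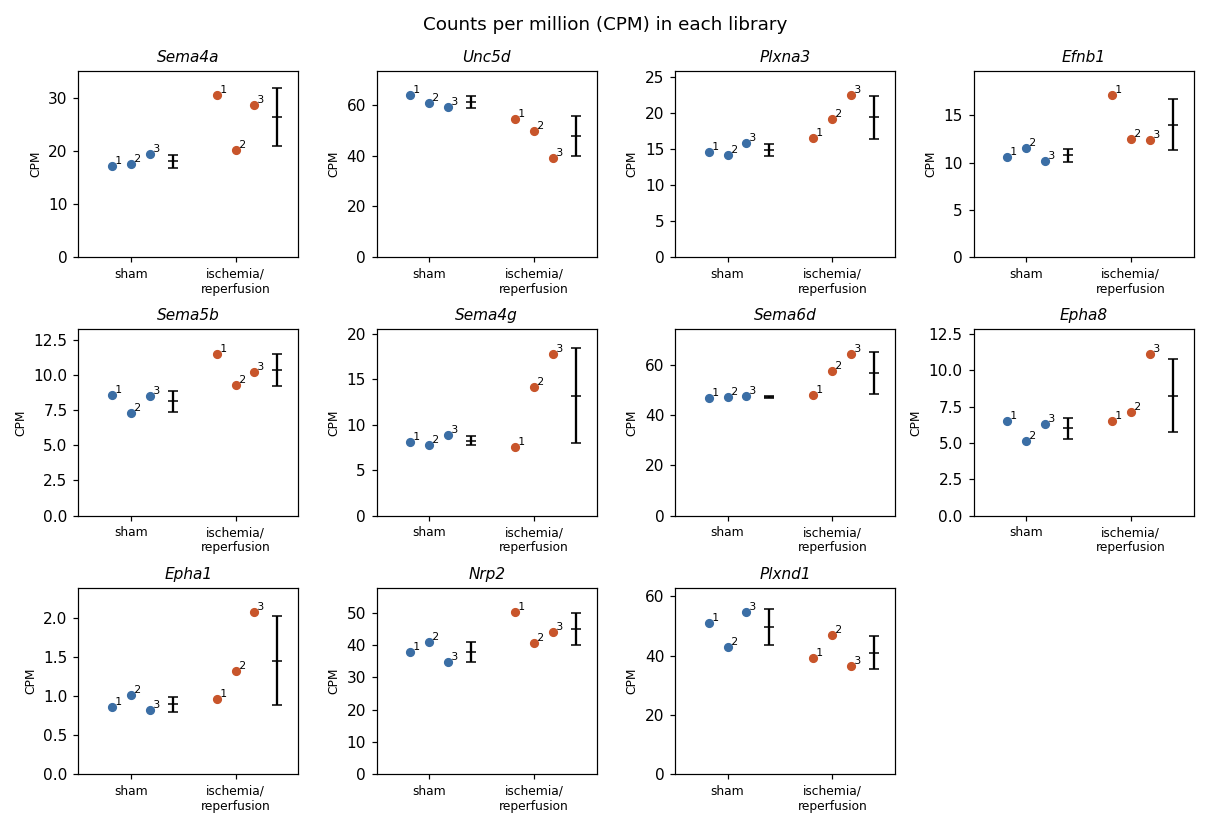
CPM in each library for the 11 guidance genes with an unadjusted p under 0.05, 1 panel per gene with the axis starting at 0; points are libraries numbered by replicate, and the bar is the mean with its SD (n = 3 per group). The groups separate in Sema4a, Unc5d, Plxna3, Efnb1, Sema5b and Sema6d and overlap in the other 5 genes.

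The ischemia/reperfusion libraries differed more among themselves than the sham libraries. The median coefficient of variation of the guidance genes was 9.22% in sham and 17.3% in ischemia/reperfusion. Over all gene-symbol rows the medians were 9.09% and 12.9%. The coefficient was larger in ischemia/reperfusion for 54 of 69 members and for 10950 of 16642 gene-symbol rows. Ischemia/reperfusion replicate 1 was the lowest of the 6 libraries for 29 members, and replicates 2 and 3 of that group were each the highest for 20. Such counts were not made over all rows, so they cannot be called particular to these genes. Plxnb3, Sema6a, Sema4d, Plxnb1 and Sema5a are described next because of this spread and were chosen after their values were seen. Plxnb3, an oligodendrocyte plexin, had 14.7, 15.2 and 17.5 CPM in the sham libraries and 12.6, 24.7 and 35.7 CPM after reperfusion. Sema6a, a class 6 semaphorin with a known part in oligodendrocyte differentiation, had 15.2, 14.8 and 19.5 CPM and then 13.8, 25.3 and 31.8 CPM. Sema4d, the ligand of Plxnb1, had 25.5, 19.4 and 26.1 CPM and then 21.4, 24.5 and 39.3 CPM.

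In Plxnb3, Sema6a, Sema4d, Sema4g and Unc5b the 3 ischemia/reperfusion libraries stood in the same order as the summed oligodendrocyte markers, 2444, 3113 and 5695 CPM. They are 5 of 21 members (30.4%) with that order, which 16.5% of all rows tested shared. Another 21 members were lowest in replicate 1 and highest in replicate 2, an order found in 19.5% of all rows. Of the markers, all 4 of oligodendrocytes stood in the first order, but so did 3 of 6 of thalamus and hypothalamus and 2 of 4 of hippocampus. So did 2 of 4 of neutrophils and monocytes. For endothelium, for pericytes and smooth muscle, and for meningeal and perivascular fibroblasts it was 2 of 5 each, and over all markers 19 of 68. Prox1, a hippocampal marker, was at 9.48, 24.2 and 31.9 CPM and Prkcd, a thalamic one, at 49.3, 88.2 and 121 CPM in ischemia/reperfusion replicates 1 to 3. In the same lists Wfs1 of hippocampus went the other way, at 84.1, 58.1 and 46.1 CPM. Avp, Oxt and Trh of hypothalamus were highest of these libraries in replicate 1. The part of any of these markers in the fold changes was not tested. The oligodendrocyte markers were lowest and the striatal markers highest in ischemia/reperfusion replicate 1. Without that library 4 members passed the edgeR threshold: Sema4g (0.95 on the log2 scale, adjusted p = 0.0139), Plxnb3 (0.92, 0.0177), Sema6a (0.78, 0.0226) and Sema5a (0.40, 0.0424). That fit rests on 2 ischemia/reperfusion libraries, and it called 2.58% of all rows. With all 6 libraries the edgeR adjusted p-values of these 4 members were 0.294, 0.458, 0.433 and 0.691. Sema5a had 52.8, 50.9 and 49.3 CPM in the sham libraries and 38.1, 68.2 and 67.6 CPM after reperfusion. Its log2 fold change was 0.19 with all 6 libraries, and 0.05 and 0.06 without ischemia/reperfusion replicates 2 and 3. Plxnb1, the receptor of Sema4d, followed another order, with 52.5, 86.6 and 62.9 CPM after reperfusion against 49.1 to 57.9 CPM in the sham libraries.

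**Figure D4:**
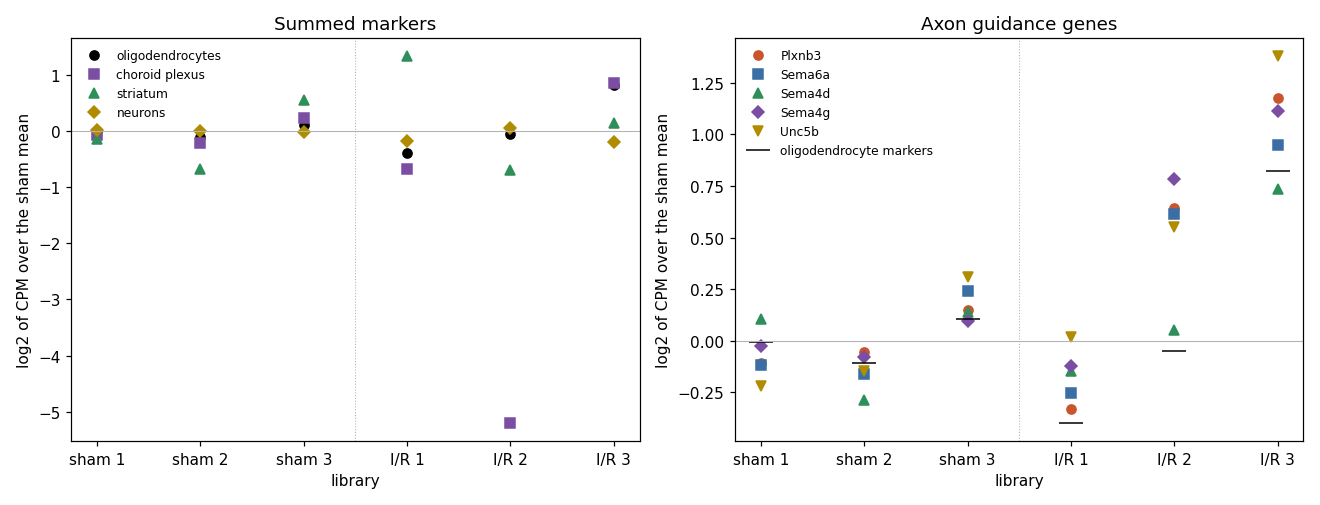
Log2 of CPM over the sham mean in each of the 6 libraries, left for summed markers of oligodendrocytes, choroid plexus, striatum and neurons and right for Plxnb3, Sema6a, Sema4d, Sema4g and Unc5b with the oligodendrocyte markers as dashes. In ischemia/reperfusion the 5 genes and the oligodendrocyte markers are lowest in replicate 1 and highest in replicate 3, while the choroid plexus markers are at 17.7 CPM in replicate 2.

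Sham replicate 2 was the highest sham library for 16 members. For 3 of them, Epha2, Sema4c and Efna1, it was at least 1.5 times as high as both other sham libraries, a bound chosen after the values were seen; the next, Robo4, stood at 1.46 times. Epha2, an Eph receptor of epithelium and vessels, had 2.21, 6.31 and 2.32 CPM in the sham libraries and 4.87, 4.06 and 5.03 CPM after reperfusion. Efna1, its ligand, had 4.30, 8.21 and 4.63 CPM in the sham libraries and 5.47, 5.55 and 8.33 CPM after reperfusion, and Sema4c had 8.82, 16.9 and 8.91 and then 12.4, 13.1 and 14.9 CPM. For Epha2 and Sema4c that 1 sham library was above every other library. The 5 endothelial markers did not share a direction there. In sham replicates 1 to 3 Cldn5 was at 54.1, 76.3 and 50.4 CPM, and Flt1 and Cdh5 were also highest in replicate 2. Slco1a4 was lowest there, with 28.1, 7.98 and 31.7 CPM, and Pecam1 was at 23.7, 26.9 and 25.3 CPM. Their part in the levels of these 3 genes was not tested.

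The other genes of the pathway were taken from lists of 17 co-receptors and further cues, 33 signal transducers and 27 cytoskeletal effectors, 77 genes in all. None passed the edgeR threshold, while 17 (22.1%) had an unadjusted p under 0.05, 10 higher and 7 lower, against 15.6% of all rows. The groups did not overlap for 20 of them (26.0%, against 21.6% of all rows), and the median log2 fold change was 0.05. Srgap1, a GTPase-activating protein that binds Robo1, had 7.78, 8.56 and 9.20 CPM in the sham libraries and 11.7, 13.6 and 17.9 CPM after reperfusion. Every ischemia/reperfusion library was higher, by 0.76 ± 0.16 on the log2 scale (SE). The adjusted p was 0.148 with edgeR and 0.00741 with DESeq2. Of the 77 genes DESeq2 called only Srgap1, while it called 1.8% of all its rows. Flrt3, a ligand of Unc5 receptors, had 38.2, 39.2 and 45.2 CPM in the sham libraries and 30.6, 33.6 and 28.3 CPM after reperfusion, at -0.41 on the log2 scale (edgeR adjusted p = 0.172). Flrt3 and Unc5d were both lower in each ischemia/reperfusion library than in any sham library, and so was Flrt2, at -0.26 on the log2 scale. Unc5b, another Unc5 receptor, had 0.76 with overlapping groups. Whether these genes changed together was not tested. Flrt1, a relative of Flrt3, was higher in all 3 ischemia/reperfusion libraries, with 29.2 ± 2.74 CPM in the sham libraries and 38.0 ± 5.83 CPM after reperfusion (SD, n = 3 each).

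Of the effectors, Dpysl4, a collapsin response mediator protein of semaphorin signalling, had 42.5 ± 2.43 CPM in the sham libraries and 34.1 ± 1.10 CPM after reperfusion, and Pak3, a Rac-activated kinase, 181 ± 5.30 and 148 ± 13.3 CPM (SD, n = 3 each). Ablim3, an actin-binding LIM protein, had 15.1 ± 0.378 and 19.5 ± 3.50 CPM (SD, n = 3 each). The groups did not overlap for any of these 3 genes, and their edgeR adjusted p-values were 0.198, 0.218 and 0.247. The number of pathway genes at an unadjusted p under 0.05 was 9 (11.7%) with DESeq2, against 13.9% of all rows. Without sham replicates 1, 2 and 3 it was 6 (7.79%), 8 (10.4%) and 9 (11.7%), against 9.27%, 11.9% and 11.9% of all rows, and without ischemia/reperfusion replicate 3 it was 7 (9.09%), against 10.9%. Without that replicate the log2 fold change of Flrt1 was 0.25, against 0.38 with all 6 libraries, and without ischemia/reperfusion replicate 1 that of Ablim3 was 0.22, against 0.37. Without ischemia/reperfusion replicate 1, 4 of the 77 pathway genes passed the edgeR threshold, in a fit that called 2.58% of all rows.

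The table also holds rows of FANTOM3 full-length cDNA clones, and 187 of them lie inside 34 of the guidance genes on the same strand. They may share reads with the gene row and with each other, and no exon annotation was used here. Of 149 tested rows, in 31 members, none passed the edgeR threshold. DESeq2 called 3 of them, while it called 1.8% of all its rows. In edgeR 14 (9.40%) had an unadjusted p under 0.05, 6 higher and 8 lower, against 16% of all clone rows (10.4% higher and 5.63% lower). That number was 26 (16.9%) without ischemia/reperfusion replicate 1, where 5 passed the threshold, and 9 (5.73%) without sham replicate 1, against 21.6% and 10.2% of all clone rows. After the values were seen, the rows were split by place. The 35 rows within 10 kb of the 3′ end of their gene had a median log2 fold change of -0.14 (-0.23 without sham replicate 2, and -0.03 with a window of 50 kb), and the 7 with an unadjusted p under 0.05 were all lower. The 114 rows farther inside had a median of 0.21, with 6 higher and 1 lower at that p. Over clone rows inside any gene-symbol row on the same strand, 309 of 5957 near a 3′ end were higher and 732 lower at that p. Of 9696 inner rows there, 1607 were higher and 84 lower. In 11 of the 12 members with rows of both kinds the median of the inner rows was the higher one.

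The same split held over the whole table, where inner clone rows had a positive fold change in 77.1% of 9696 rows and those near a 3′ end in 41.4% of 5957, so it is not particular to guidance genes. In Unc5d the clone row D930029E11, at the 3′ end of the gene (chr8:28646717-28648223, mm10), had 9.62, 8.79 and 8.33 CPM in the sham libraries and 6.36, 4.66 and 4.37 CPM after reperfusion. Its log2 fold change was -0.80 ± 0.17 (SE), larger in size than that of the Unc5d row, with an adjusted p of 0.148 in edgeR and 0.00461 in DESeq2. The overlapping clone row fantom3_9330159N21 had -0.76 on the log2 scale. In Dcc the 3′ clone row A830015M19 had 7.96 ± 0.942 CPM in the sham libraries and 5.21 ± 0.830 CPM after reperfusion (SD, n = 3 each), at -0.61 on the log2 scale, while the Dcc row itself had -0.02.

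Rows farther inside were positive in 78 of 114 cases (68.4%), but members differed. In Robo1 all 7 tested inner rows had positive values, with a median of 0.78, while the Robo1 row had -0.01. Their summed level was 2.89, 3.24 and 2.87 CPM in the sham libraries and 3.39, 4.79 and 5.53 CPM after reperfusion. In Slit3 the inner clone row A130040F22 (chr11:35311189-35315251, mm10) had 1.72 ± 0.321 and 3.35 ± 1.18 CPM (SD, n = 3 each), at 0.96 on the log2 scale. In Efna5 11 of 12 inner rows were positive, with a median of 0.37. Dcc had 12 of 20 and Unc5c 11 of 18 positive inner rows. In Robo2 only 2 of 10 were positive, with a median of -0.14, and in Unc5d 0 of 4, with a median of -0.16. The inner row D930007B09 of Epha3 (chr16:63690459-63694736, mm10) had the largest value of the named clone rows, 2.28, but lay at 0.0205 to 0.129 CPM in the sham libraries and 0.381 to 0.518 CPM after reperfusion, few counts in any library.

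**Figure D5:**
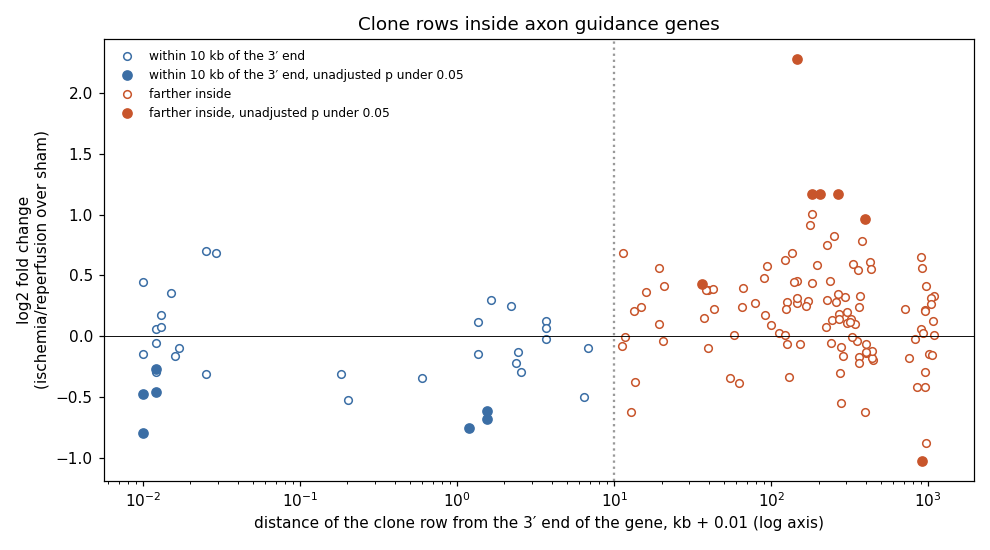
Log2 fold change of the 149 tested clone rows inside guidance genes against their distance from the 3′ end of the gene (kb, log axis); blue marks rows within 10 kb of the end, orange those farther inside, and filled points an unadjusted p under 0.05. All 7 filled points within 10 kb lie below 0, and 6 of the 7 filled points farther inside lie above it.

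The members lie near each other at several places of the genome (mm10). Within 1 Mb there were 11 neighbouring pairs, made up of 19 genes. On chromosome 3 Efna1, Efna3 and Efna4 follow each other with gaps of 34.0 and 10.5 kb, yet their levels were 3.71, 29.3 and 0.184 RPKM. Robo4, an endothelial Robo, and Robo3 are 2.02 kb apart on chromosome 9, at 1.82 and 1.20 RPKM. On the X chromosome Plxnb3 and Plxna3, with 557 kb between them, had log2 fold changes of 0.62 and 0.38. The 17 members that span 200 kb or more had a median log2 fold change of 0.03, and the 52 shorter ones 0.10.

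The authors' deposited table gives a fold change of mean RPKM and a q-value for every member; no label or header names the test behind it. Of the 69 members, 38 (55.1%) had a q-value under 0.05 in the authors' deposited table, 32 higher and 6 lower, against 24.5% of its 45851 rows (14.7% higher and 9.77% lower). Of these 38 members only 11 had an unadjusted edgeR p under 0.05, which were all 11 such members. Unc5b, Plxnb1 and Plxna4 had deposited q-values of 2.1e-14, 1.24e-14 and 2.59e-14. Their unadjusted edgeR p-values were 0.0896, 0.0926 and 0.177. In the authors' deposited table no member reached a log2 change of 1, and the largest, that of Unc5b, was 0.82. The shares with a q-value under 0.05 were not matched for level or for kind of row, as the 45851 rows are not gene-symbol rows alone. The median level was 4.77 RPKM for the members and 2.04 RPKM for all gene-symbol rows. The part of level or of kind of row in the difference between these shares was not tested.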

How the data were processed

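Brain RNA without ribosomal RNA was sequenced paired-end on an Illumina machine, per the labels' protocols. The build was mm10, per the submitters' processing notes; the aligner, counter, gene models and strandedness were not given in the sources. The deposited counts are whole reads per row, and the deposited RPKM values and row lengths (another deposited value) were used as given for levels. The authors' deposited comparison holds a log2 fold change with p-values and q-values.

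Counts of 56826 rows were tested with edgeR 4.0.16 (R 4.3.3): TMM factors, filterByExpr defaults (minimum count 10), robust quasi-likelihood F test, two-sided, Benjamini-Hochberg adjustment over 40170 rows. All 69 members passed the filter. SE was the fold change divided by the square root of F. DESeq2 1.42.0 and limma-voom (limma 3.58.1) were alternatives, beside other scalings and filters, the replicate number as a block and leaving out each library. The fit was tested on simulated data. Replicates of a group differed by more than sampling noise. CPM floors cover counting error only. Row spans came from the deposited coordinates, and promoters and their motifs from RefSeq GRCm38.p6.

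The members and lists were chosen with earlier results of these data known. Named were members with unadjusted p under 0.05, the 3 highest by RPKM and 2 of smallest p per role, 6 pathway genes and 5 clone rows of smallest p, and the members nearest the count minimum. Genes named after their values were seen are marked, and Sema3a, Sema3e, Dcc, Ntn1, Ntn3, Unc5c, Efna1, Efna5, Epha3, Slit3, Robo4 and Flrt2 were also named then. The proposed list held 59 of the 69 members. A further oligodendrocyte marker is not reported here, and the sums were made without it.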

Additional observations from a re-analysis of the deposited data

How the results depend on the processing

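The count of members past the threshold was 0 under RLE and upper-quartile factors, both filters, gene-symbol rows only, DESeq2, limma-voom and the replicate block, and 0 to 4 without 1 library. Members at an unadjusted p under 0.05 (11) were 6 with limma-voom and 3 to 19 without 1 library, those with separate groups (6) 9 to 25 (13% to 36.2%, where 28.1% to 39.5% of all rows separate with 1 library fewer), and their median fold change 0.05 to 0.15. Rows past the threshold (1) were 584 with DESeq2, 77 with no low-count filter, 4 with limma-voom, 2 with upper-quartile factors, 0 with a mean of at least 1 CPM, 0 with gene-symbol rows only, 0 with the replicate block, and 0 to 1057 without 1 library. The deviations of same-numbered libraries from their group means correlated at -0.0678, 0.0337 and 0.11, and other pairs ran from -0.135 to 0.11. With 3 libraries per group these values cannot tell whether the numbers pair the libraries. In edgeR with the replicate block 11 members had an unadjusted p under 0.05. Pathway genes past the threshold were 1 with DESeq2 and 0 to 4 without 1 library, and at an unadjusted p under 0.05 they were 9 with DESeq2 and 6 to 21. Clone rows past the threshold were 3 with DESeq2 and 0 to 5 without 1 library, and at an unadjusted p under 0.05 they were 9 with a mean of at least 1 CPM, where fewer rows were tested, and 9 to 26. The median near the 3′ end was -0.0292 with a window of 50 kb, and -0.228 to -0.0883 without 1 library; that of inner rows was 0.12 to 0.30. The 3′ split and its windows were chosen after seeing the data. Robo1 turned positive with upper-quartile factors (0.0348), a mean of at least 1 CPM (0.0253) and gene-symbol rows only (0.0360), and Plxna2 with upper-quartile factors (0.00258) and gene-symbol rows only (0.00419). Without 1 library the log2 fold change ran from -0.19 to 0.0268 for Epha4, -0.00861 to 0.25 for Ephb6, -0.0588 to 0.35 for Epha6, -0.25 to 0.15 for Slit1, -0.0609 to 0.0619 for Robo1, -0.0962 to 0.17 for Efnb3, -0.0525 to 0.15 for Efna3, -0.16 to 0.14 for Efnb2, -0.21 to 0.0271 for Unc5a, -0.18 to 0.0595 for Plxna2, -0.19 to 0.25 for Nrp1, -0.0537 to 0.16 for Sema7a and -0.0477 to 0.42 for Sema4d. Apart from that 1 CPM count, the cause of these shifts was not tested.

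With 3 libraries per group, the intervals give the precision. Members such as Efna4 and Epha1 have few counts, and how strand was counted is not known.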
